A study of Arabidopsis thaliana with 3 samples.

Results

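SAUR (small auxin up RNA) genes were followed in inflorescence meristems and flower buds of Arabidopsis thaliana, in plants that lack SEP1, SEP2 and SEP3 function with and without a variant of SEP3. The members are the 30 genes, of 19777 in the authors' deposited table, whose description contains the word SAUR. SAUR genes encode small plant proteins, and many of them are rapidly switched on by auxin. In seedlings, SAUR19-type proteins are known to bind and inhibit PP2C.D phosphatases, which would otherwise switch off plasma membrane proton pumps. Active pumps acidify the cell wall and cells expand. In flowers, SAUR63 is known for promoting stamen filament elongation, and SAUR62 and SAUR75 for pollen tube growth.

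Poly(A) RNA came from 3 independent transgenic lines, 1 library each, in the sep1sep2sep3 background and expressing SEP3Δtet, which the series title names as the splice variant SEP3.3 of the MADS-domain factor SEPALLATA3. Per the sample labels, buds were taken up to stages 10 to 11 for line 1, up to 12 for line 2 and up to 13 for line 3, whereas the series text gives 10 to 11 for all. The plants were grown in parallel under long days. The comparison is with sep1sep2sep3 plants without the transgene, whose libraries are not analysed here, and no source used here names the promoter of the transgene. The authors' deposited table holds 1 value per gene, so levels per line, the spread between lines and sequencing depth are unknown.

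The values are log2 fold changes, read as positive where RNA was higher in the SEP3Δtet lines, and the average log2 CPM (read counts scaled to library size, CPM) over all libraries of the fit. The direction was read from the order of the genotypes in the name of the table and from the positive value of SEP3, the gene of the transgene, which had a log2 fold change of 2.27 per the authors' deposited table and is therefore no separate check of the labels. A gene is said to have risen or fallen where its deposited adjusted p was under 0.05. Beside a fold change stands an implied 95% interval, worked out from the fold change, its F statistic and its degrees of freedom. It stands in for the standard error that the table does not give. Floral identity genes of the labelled tissue were present, with LFY, AP1, AP3, PI and AG averaging between 4.36 and 7.81 log2 CPM per the authors' deposited table. They were not stable: AP3 and PI rose, LFY and AP1 fell, and AG neither rose nor fell. Their log2 fold changes ran from -1.003 for AP1 to 0.769 for PI per the authors' deposited table. Anther and tapetum markers were higher in 8 of 8 cases (log2 fold change 2.32 to 4.13), and 5 of 5 photosynthesis markers were lower (-1.40 to -0.38), per the authors' deposited table. The part of these tissue shifts in the SAUR values was not tested, and in bulk RNA a change in the number of cells of a type cannot be told apart from a change in RNA per cell.

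SAUR genes moved in both directions. Of the 30, 7 rose (SAUR41, SAUR48, SAUR72, SAUR71, SAUR70, SAUR49 and SAUR51), 3 fell (SAUR68, SAUR14 and SAUR50) and 20 were not called. The share called was 33.3%, beside 17.5% of all genes tested. For rises it was 23.3% beside 11.6%, and for falls 10.0% beside 5.88%. The SAUR genes were scarcer than all genes, with a median of 1.60 against 4.46 log2 CPM. Rises were commoner and falls rarer among scarce genes. Between 1 and 2 log2 CPM, where 8 of the members lie, 344 of 1481 genes rose and 25 fell. Between 2 and 3, where 6 members lie, 328 of 1875 rose and 60 fell. An unadjusted p under 0.05 was found for 16 of the 30 SAUR genes, with 29.7% of all genes as the background. The median log2 fold change of the 30 was 0.04, with 16 above and 14 below 0, and that of all genes was -9.4e-04. The family as a whole was thus centred near no change, while its members spread from -1.63 (SAUR62, not called) to 2.65 (SAUR41). At low abundance the medians of all genes were higher. They were 0.79 between -1 and 0 log2 CPM, 0.28 between 0 and 1, 0.20 between 1 and 2 and 0.11 between 2 and 3. The annotation gives the SAUR name to 79 loci, of which 31 are in the table and 48 are not analysed here, SAUR10, SAUR15, SAUR19 and SAUR36 among the latter.

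**Figure D1:**
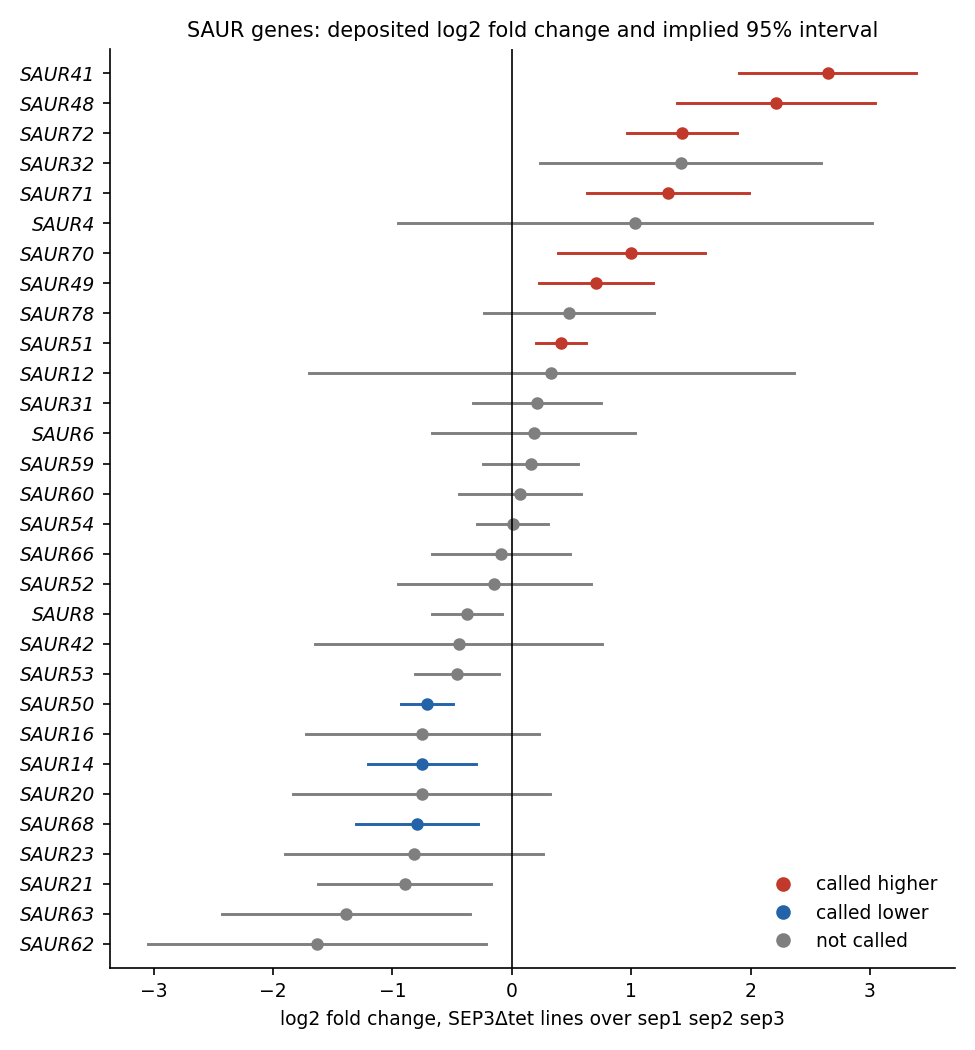
Log2 fold change (x axis) of each of the 30 SAUR genes (y axis), SEP3Δtet lines over the triple mutant, with bars for the implied 95% interval. SAUR41 stands highest at 2.65 and SAUR62 lowest at -1.63, and several grey genes have wide intervals that lie off 0 without passing the adjusted threshold.

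SAUR41 rose most, and all measured genes of its branch of the family rose. SAUR41, SAUR71 and SAUR72 belong with SAUR40 to a branch known for expression in specific cell types and, for SAUR41, for promoting cell expansion when overexpressed. SAUR41 (AT1G16510, chr1:5644572-5645443 in TAIR10.1, minus strand) rose 6.26-fold per the authors' deposited table, a log2 fold change of 2.65 with an implied interval of 1.90 to 3.39 and an adjusted p of 2.2e-04. SAUR72 (AT3G12830, chr3:4078651-4079627) rose by a log2 fold change of 1.43 (interval 0.97 to 1.89, adjusted p = 5.4e-04) per the authors' deposited table. SAUR71 (AT1G56150, chr1:21017311-21018122), known from the stomatal lineage, rose by 1.31 (interval 0.63 to 1.99, adjusted p = 0.012) on the same scale per the authors' deposited table. SAUR40 is not analysed here. Their proteins were between 62.1% and 78.2% identical, and their average abundance was 3.02 log2 CPM for SAUR41, 3.08 for SAUR72 and 1.22 for SAUR71 per the authors' deposited table. Among all genes within the same whole unit of log2 CPM, the fold change of SAUR41 lay at percentile 96.9, that of SAUR72 at 94.1 and that of SAUR71 at 79.1.

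SAUR48, SAUR70, SAUR49 and SAUR51 rose as well and come from 4 other branches. SAUR48 (AT3G09870), with an average of 1.04 log2 CPM, stood at a log2 fold change of 2.21 per the authors' deposited table (interval 1.38 to 3.04, adjusted p = 0.0016). Its closest relative, SAUR42, is 42.5% identical in protein and had a log2 fold change of -0.44 per the authors' deposited table, with an interval of -1.65 to 0.76. SAUR70 (AT5G20810), which has 2 exons and the longest protein of the 30 at 190 residues, rose 2.002-fold per the authors' deposited table (a log2 fold change of 1.002, adjusted p = 0.028). SAUR49 (AT4G34750), whose protein is known to act in leaf senescence through the phosphatase SSPP, rose by 0.71 on the log2 scale (interval 0.23 to 1.19, adjusted p = 0.044) per the authors' deposited table. In their bins of abundance, SAUR48 lay at percentile 85.7, SAUR70 at 76.2, SAUR49 at 80.2 and SAUR51 at 94.2 of all genes.

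SAUR51 had the smallest rise of the 7 and, per kilobase, the highest level of the 30. SAUR51 (AT1G75580) rose 1.33-fold per the authors' deposited table, a log2 fold change of 0.41 with a narrow interval of 0.20 to 0.62 and an adjusted p of 0.011. Per kilobase of transcript, the average level of SAUR51 was 5.14 log2 CPM, ahead of SAUR54 at 4.23, SAUR50 at 4.21 and SAUR8 at 3.79 on the same per-kilobase scale. These 4 most abundant genes are close relatives, and they did not move together. SAUR54 stood at a log2 fold change of 0.01 (interval -0.29 to 0.31) per the authors' deposited table, and its protein is 80.6% identical to that of SAUR51. SAUR50 fell, and SAUR8 had -0.37 (interval -0.67 to -0.08, adjusted p = 0.081) per the authors' deposited table.

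The 3 falls were of like size. SAUR50 (AT4G34760, chr4:16582183-16583075, minus strand), known for promoting cotyledon opening in the light, fell 1.64-fold per the authors' deposited table. Its log2 fold change was -0.71 with an interval of -0.93 to -0.49 and an adjusted p of 3.4e-04, and among all genes between 4 and 5 log2 CPM it lay at percentile 0.72. SAUR14 (AT4G38840), another light-induced gene in cotyledons, fell 1.68-fold per the authors' deposited table (a log2 fold change of -0.75, interval -1.20 to -0.30, adjusted p = 0.027). SAUR68 (AT1G29510), which the annotation also lists as SAUR67, fell 1.73-fold per the authors' deposited table (a log2 fold change of -0.79, interval -1.30 to -0.28, adjusted p = 0.036). The annotation also gives the name SAUR68 to AT1G29490, a locus not analysed here. Neighbours on the chromosome could differ: SAUR49 and SAUR50 lie 3730 bp apart on opposite strands of chromosome 4, with the first higher and the second lower. Their proteins share 39.3% of residues. In no other neighbour pair were both genes called. SAUR62 and SAUR63, SAUR66 and SAUR68, SAUR6 and SAUR12, and SAUR20 and SAUR21 had like signs. SAUR54 and SAUR53, and SAUR51 and SAUR52, had opposite signs.

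**Figure D2:**
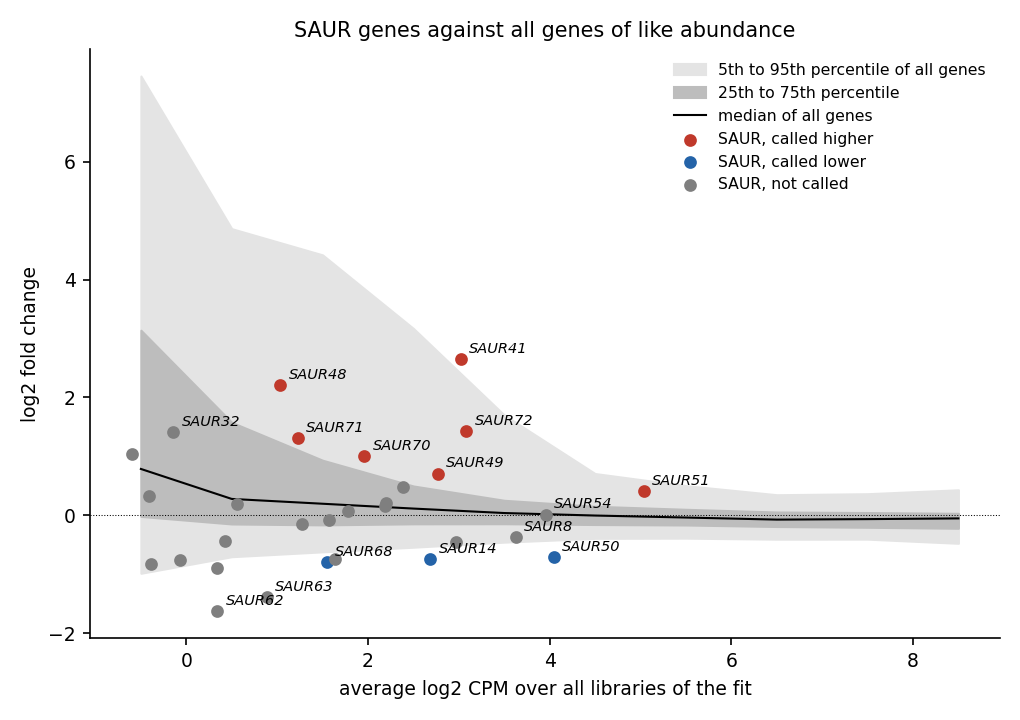
Log2 fold change (y axis) of the SAUR genes against average log2 CPM (x axis), over grey bands that give the percentiles of all genes in bins of 1 log2 CPM. SAUR41 lies above the 95th percentile of its bin. SAUR50, SAUR16, SAUR14, SAUR68, SAUR21, SAUR63 and SAUR62 lie under the 5th percentile of theirs. The bands themselves lean upward at low abundance.

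SAUR62, SAUR63, SAUR66 and SAUR68 form a tandem cluster on chromosome 1 and all had negative values. SAUR62 (AT1G29430) had a log2 fold change of -1.63 (interval -3.04 to -0.21, adjusted p = 0.113) per the authors' deposited table. SAUR63 (AT1G29440) had -1.39 (interval -2.43 to -0.35, adjusted p = 0.067) per the authors' deposited table. SAUR66 (AT1G29500) stood at -0.09 (interval -0.67 to 0.49) per the authors' deposited table, so the values range from close to 0 to the lowest of the family, and SAUR68 alone among the 4 passed the test. Average abundance ran from 0.34 log2 CPM for SAUR62 to 1.57 for SAUR66 per the authors' deposited table. In their bins of abundance, SAUR62 lay at percentile 0.47, SAUR63 at 0.78, SAUR68 at 2.30 and SAUR66 at 30.5 of all genes. SAUR62 and its relative SAUR75, not analysed here, have coding DNA that is 97.7% identical. SAUR63 and SAUR68 are 91.8% identical in coding DNA, and SAUR63 is overlapped on the other strand by AT1G29435. No source used here says how reads shared between genes or strands were counted, so single values of this cluster are uncertain.

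The SAUR19 to SAUR24 genes, the branch best known for driving hypocotyl elongation through proton pumps, were represented by SAUR20, SAUR21 and SAUR23. Their log2 fold changes were -0.75 for SAUR20 (interval -1.83 to 0.32), -0.90 for SAUR21 (-1.62 to -0.17) and -0.82 for SAUR23 (-1.90 to 0.26) per the authors' deposited table. The values lie close together and none passed the test (adjusted p = 0.352 for SAUR20, 0.088 for SAUR21 and 0.308 for SAUR23), at averages of only -0.39 to 0.34 log2 CPM per the authors' deposited table. The intervals include a fall of more than 2-fold for each gene, so a missed call does not show an equal level. The genes are near-identical copies, as the first 60 coding bases show, where capitals mark the 8 positions at which the copies differ (TAIR10.1 genome, RefSeq annotation).
SAUR20 (chr5:5966521-5966580, minus strand): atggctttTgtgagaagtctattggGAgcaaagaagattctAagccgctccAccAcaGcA
SAUR21 (chr5:5968527-5968586, plus strand): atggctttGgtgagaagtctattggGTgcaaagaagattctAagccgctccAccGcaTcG
SAUR23 (chr5:5976030-5976089, plus strand): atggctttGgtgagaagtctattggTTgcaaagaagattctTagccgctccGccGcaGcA
Over the whole coding sequence, SAUR20 and SAUR21 are 93.6% identical in DNA, SAUR20 and SAUR23 90.8%, and SAUR21 and SAUR23 93.3%. SAUR21 is 95.9% identical to SAUR19, which is not analysed here. Values of single copies are therefore uncertain.

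At a cut of 50% protein identity, relatives shared a direction about as often as any pair. Of 435 pairs among the 30 proteins, 50 were at least 50% identical, and in 26 of these both genes had log2 fold changes of the same sign (52.0%). Over all 435 pairs the share was 48.5%, and both genes were called in only 6 of the 50. The result depends on the cut, since most pairs at 80% identity or more had the same sign. Many of those pairs lie among SAUR20, SAUR21 and SAUR23 or within the chromosome 1 cluster, where single values are uncertain. SAUR12 and SAUR16, 89.4% identical, stood at 0.33 and -0.75 per the authors' deposited table, each with a wide interval (-1.69 to 2.36 and -1.72 to 0.23). In the branch of SAUR8, SAUR12, SAUR16, SAUR50, SAUR51 and SAUR54, which are 65.7% to 89.4% identical, 1 rose, 1 fell and 4 were not called. Of the SAUR9 to SAUR16 series, SAUR14 fell and SAUR12 and SAUR16 were not called. SAUR53 (log2 fold change -0.46, interval -0.81 to -0.10) and SAUR52 (-0.15, interval -0.95 to 0.66), 82.4% identical, were not called per the authors' deposited table, and their relative SAUR49 rose.

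**Figure D3:**
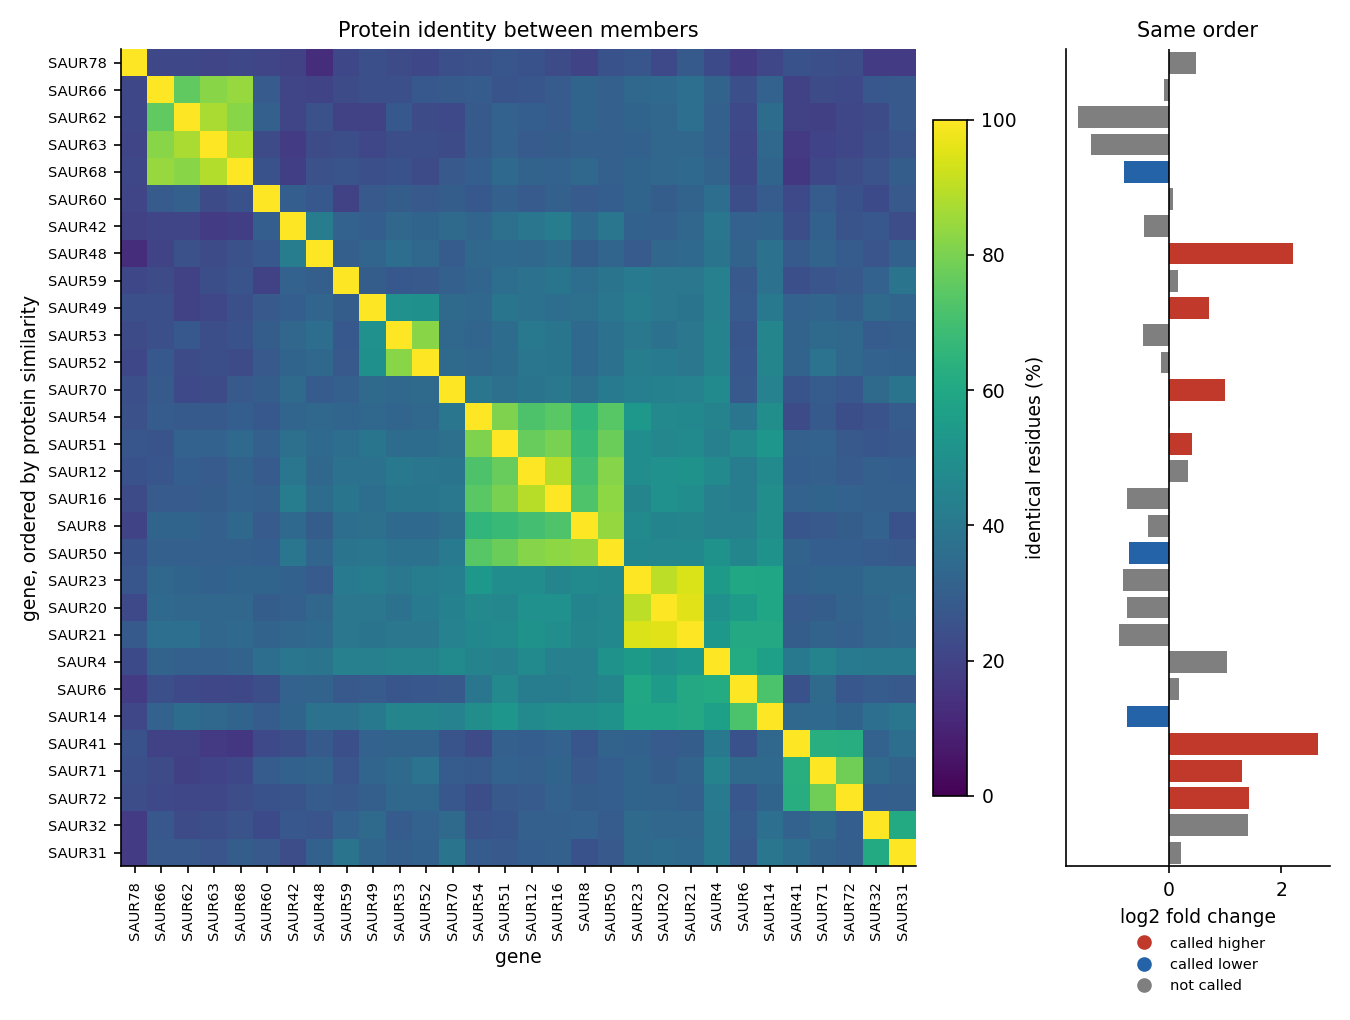
Percent identity between the proteins of the 30 SAUR genes (colour, both axes ordered by similarity) beside their log2 fold changes in the same order (bars, x axis). The SAUR41, SAUR71 and SAUR72 block rose throughout and the SAUR62 to SAUR68 block lies below 0 throughout, while the block from SAUR54 to SAUR50 is mixed.

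The other members were not called. SAUR32, known from apical hook studies, had the largest positive value among them, a log2 fold change of 1.41 (interval 0.24 to 2.59, adjusted p = 0.097) at -0.14 log2 CPM per the authors' deposited table. SAUR62 had the largest negative one. SAUR4 (1.03, interval -0.95 to 3.01) and SAUR12 had the widest intervals at averages of -0.60 and -0.41 log2 CPM per the authors' deposited table. SAUR78, whose relatives are linked to ethylene receptor signalling, stood at a log2 fold change of 0.48 (interval -0.23 to 1.19) per the authors' deposited table. SAUR31, SAUR6, SAUR59 and SAUR60 lay between 0.07 and 0.21 on the log2 fold change scale per the authors' deposited table. Genes that overlap SAUR31, SAUR6, SAUR60 and SAUR8 in the annotation add uncertainty to their values.

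Calls lay among the more abundant genes. All 10 were among the 20 SAUR genes of at least 1 log2 CPM, a range in which 16.3% of all genes were called. None of the 10 scarcer SAUR genes was called by edgeR's test, while 4 had an unadjusted p under 0.05 and 27.5% of all genes under 1 log2 CPM were called. In that range 1329 genes of the whole table had positive and 620 negative log2 fold changes, against 4 and 6 of the SAUR genes. The median implied error of a SAUR log2 fold change was 0.32, against 0.13 over all genes.

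Most SAUR genes are built alike. Of the 30, 28 have a single exon, and the proteins run from 88 to 190 residues with a median of 121.5. Upstream sequences are shown for the cluster on chromosome 1, whose values were all negative, and for SAUR14, SAUR50 and SAUR41 as 2 that fell and the gene that rose most. Each is the 250 bases before the annotated gene start, 5′ to 3′ on the gene's strand (TAIR10.1 genome, RefSeq annotation). Capitals mark matches on either strand to TGTCTC or TGTCGG (auxin response elements, bound by ARF proteins), CACGTG (the G-box), CACATG (an E-box bound by PIF proteins), CGTGTG (a brassinosteroid response element) or the CArG box (bound by MADS proteins, written by name only). CACGTG and CGTGTG matches can overlap.
SAUR62 (chr1:10303419-10303668, minus strand): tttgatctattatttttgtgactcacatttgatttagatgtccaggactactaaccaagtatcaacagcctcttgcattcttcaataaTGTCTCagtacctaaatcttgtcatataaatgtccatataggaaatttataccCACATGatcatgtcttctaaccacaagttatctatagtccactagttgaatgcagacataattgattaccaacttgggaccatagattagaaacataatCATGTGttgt
SAUR63 (chr1:10305109-10305358, minus strand): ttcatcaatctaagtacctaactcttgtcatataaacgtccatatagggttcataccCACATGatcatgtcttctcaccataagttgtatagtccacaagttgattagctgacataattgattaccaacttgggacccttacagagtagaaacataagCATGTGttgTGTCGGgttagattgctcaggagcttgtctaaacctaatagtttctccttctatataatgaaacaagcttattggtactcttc
SAUR66 (chr1:10320761-10321010, plus strand): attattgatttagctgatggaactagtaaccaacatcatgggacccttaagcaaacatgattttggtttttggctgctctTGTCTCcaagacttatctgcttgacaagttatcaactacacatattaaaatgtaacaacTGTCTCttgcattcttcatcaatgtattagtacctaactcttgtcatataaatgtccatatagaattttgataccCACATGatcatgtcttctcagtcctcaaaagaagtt
SAUR68 (chr1:10322173-10322422, plus strand): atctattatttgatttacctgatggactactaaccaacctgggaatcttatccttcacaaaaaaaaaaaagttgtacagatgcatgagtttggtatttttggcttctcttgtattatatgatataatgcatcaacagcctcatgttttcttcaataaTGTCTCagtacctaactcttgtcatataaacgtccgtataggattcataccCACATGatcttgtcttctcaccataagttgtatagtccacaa
SAUR14 (chr4:18125560-18125809, minus strand): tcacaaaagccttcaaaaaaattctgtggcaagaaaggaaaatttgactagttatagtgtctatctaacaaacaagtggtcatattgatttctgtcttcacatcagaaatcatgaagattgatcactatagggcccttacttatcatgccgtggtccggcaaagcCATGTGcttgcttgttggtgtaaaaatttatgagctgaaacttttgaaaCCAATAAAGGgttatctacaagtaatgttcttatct
SAUR50 (chr4:16583076-16583325, minus strand): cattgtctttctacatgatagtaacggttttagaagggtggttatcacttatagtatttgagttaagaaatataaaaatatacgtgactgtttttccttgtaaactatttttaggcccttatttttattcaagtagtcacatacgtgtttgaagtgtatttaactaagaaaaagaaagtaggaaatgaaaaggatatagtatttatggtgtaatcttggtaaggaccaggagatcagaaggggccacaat
SAUR41 (chr1:5645444-5645693, minus strand): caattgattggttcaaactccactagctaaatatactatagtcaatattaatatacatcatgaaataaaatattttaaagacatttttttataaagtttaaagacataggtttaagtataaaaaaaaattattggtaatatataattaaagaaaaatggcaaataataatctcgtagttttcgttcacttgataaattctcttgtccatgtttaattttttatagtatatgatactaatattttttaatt

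CACATG was the motif found most often. It lay before 11 of the 30 SAUR genes (36.7%), against 11.1% of 27438 windows of all protein-coding genes. All 4 genes of the chromosome 1 cluster hold it. It lies before 2 of the 3 genes that fell (SAUR14 and SAUR68) and 1 of the 7 that rose (SAUR51). TGTCTC was found before 4 SAUR genes (13.3%, against 10.9%), namely SAUR62, SAUR66, SAUR68 and SAUR20, and TGTCGG before SAUR63 alone (3.33%, against 4.16%). TGTCTC and CACATG stood together in 3 SAUR windows (10.0%), all in that cluster, against 1.31% of all windows, a pairing looked at after the windows had been seen. The 4 cluster windows also share a run of 14 bases, tcttgtcatataaa, which 5 of the 27438 windows hold, 4 of them these. This run was picked, after the windows had been seen, as the longest that the 4 share, so their holding it was fixed beforehand. Copies in a tandem cluster share descent, so their windows are not independent.

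Other motifs were rare. The CArG box was found before SAUR14 only, 36 to 27 bases ahead of the start (3.33% of SAUR windows, against 2.52% of all). CACGTG was found before SAUR59 only (3.33%, against 6.49%), and CGTGTG before SAUR59 and SAUR60 (6.67%, against 5.37%). None of the 6 motifs was found in 16 of the 30 SAUR windows (53.3%), against 66.7% of all windows. These 16 hold 6 of the 7 genes that rose, 1 that fell (SAUR50) and 9 that were not called. These are matches of letters in a window that rests on the annotated start, and no binding was measured.

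**Figure D4:**
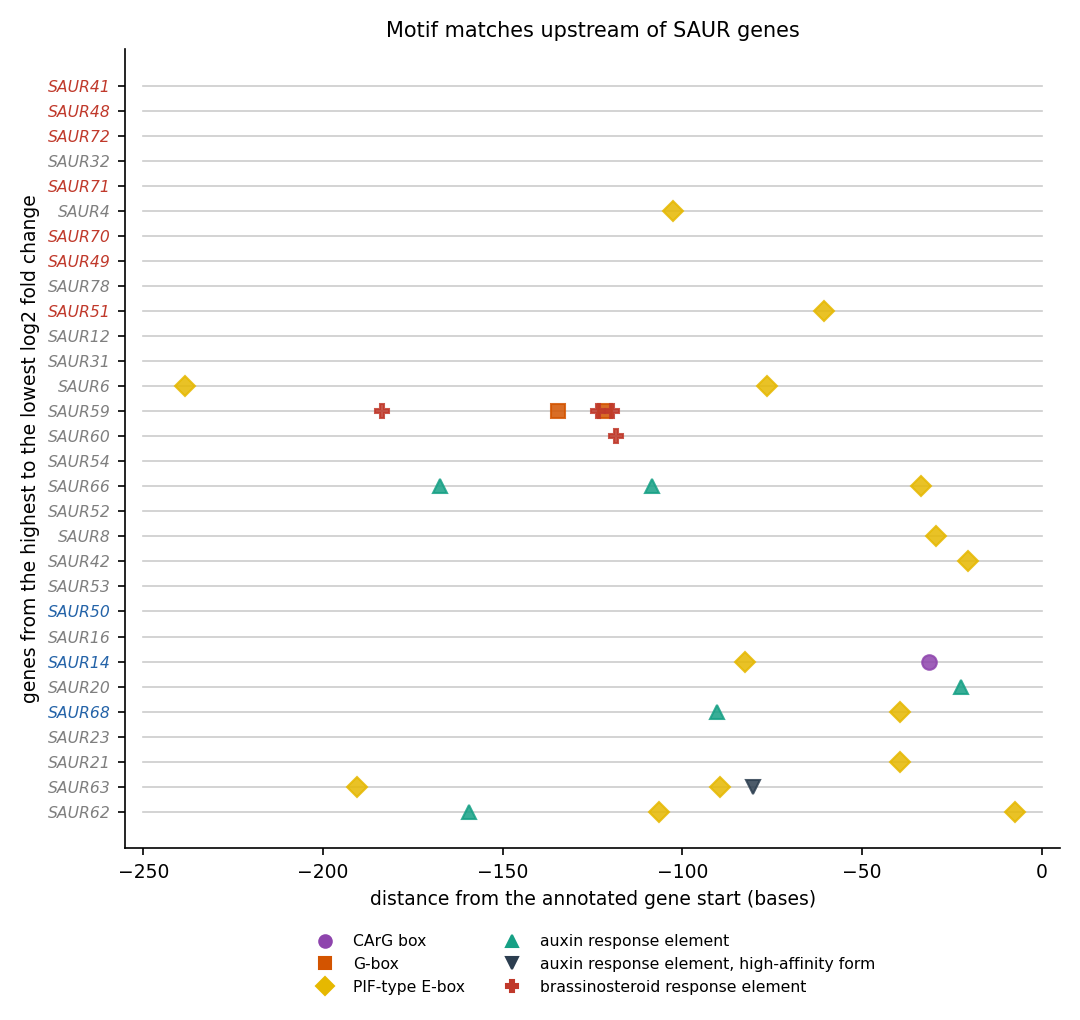
Positions of motif matches (symbols) in the 250 bases before each SAUR gene, with distance from the annotated start on the x axis and genes ordered by log2 fold change on the y axis (red names rose, blue fell, grey not called). Matches to the PIF-type E-box are the most frequent and lie mostly in the lower part of the plot, and 16 of the 30 genes have no match, where 66.7% of all protein-coding genes have none.

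Among targets of SAUR proteins, the 9 measured PP2C.D phosphatase genes held 3 that rose, 1 that fell and 5 without a call (44.4% called, beside 17.5% of all genes). PP2C.D1, the phosphatase known to act with SAUR proteins in apical hook and cotyledon opening, fell by a log2 fold change of 2.27 (interval -3.51 to -1.03, adjusted p = 0.016), at a low average of 0.34 log2 CPM per the authors' deposited table. PP2C.D7 rose by 0.60, PP2C.D8 by 0.57 and PP2C.D9 by 0.39 on the log2 scale (adjusted p = 0.027, 0.0062 and 0.034) per the authors' deposited table. PP2C.D2, PP2C.D5 and PP2C.D6 lay between -0.16 and -0.05 on the log2 fold change scale per the authors' deposited table, with intervals that together span -0.39 to 0.12.

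Of 10 measured plasma membrane proton pump genes, 2 rose, 0 fell and 8 were not called, and the share called (20.0%) was near the 17.5% of all genes. AHA9, known from anthers, stood at a log2 fold change of 3.82 (interval 2.52 to 5.11, adjusted p = 0.0023), and AHA4 at 0.55 (0.28 to 0.81, adjusted p = 0.0085), per the authors' deposited table. The main pumps of growing tissue, AHA1 (-0.13, interval -0.41 to 0.14) and AHA2 (-0.16, interval -0.36 to 0.04), were not called per the authors' deposited table. The rise of AHA9 ran beside that of the 8 anther and tapetum markers, and the part of anther tissue in it was not tested.

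Upstream, 3 of 10 listed auxin response factor and auxin receptor genes fell, 0 rose and 7 were not called (30% lower, beside 5.88% of all genes). The list was limited to ARF3, ARF5, ARF6, ARF7, ARF8, ARF19, TIR1, AFB1, AFB2 and AFB3. All 10 log2 fold changes were negative (-0.50 to -0.07) per the authors' deposited table. Abundant genes of the whole table leaned the same way. Between 6 and 7 log2 CPM their median log2 fold change was -0.07, with 97 of 2258 genes higher and 221 lower. The list's median was -0.30 at a median of 6.53 log2 CPM. Those that fell were ARF5 (-0.50, adjusted p = 0.0077), ARF8 (-0.42, adjusted p = 0.039) and the receptor gene AFB1 (-0.37, adjusted p = 0.028) per the authors' deposited table. Of 14 Aux/IAA repressor genes, themselves auxin-induced, IAA1 rose (0.59, adjusted p = 0.0497), IAA17 fell (-0.97, adjusted p = 0.0088) and 12 were not called per the authors' deposited table. The share of Aux/IAA genes called was 14.3%, under the 17.5% of all genes. Of 6 GH3 genes, which conjugate auxin to amino acids, 0 rose and 2 fell: GH3.2 (-0.79, adjusted p = 0.0096) and GH3.17 (-1.13, adjusted p = 0.049) per the authors' deposited table. The GH3 share lower was 33.3%, beside 5.88% of all genes. The calls of ARF8 (adjusted p = 0.062) and GH3.17 (0.058) were lost on recentring, and that of IAA1 (0.053) when genes under 1 log2 CPM were left out. Among 7 PIF and BZR genes, PIF7, a shade-response factor, rose (2.41, adjusted p = 0.0025), PIF5 fell (-0.81, adjusted p = 0.035) and 5 were not called per the authors' deposited table. Over the 60 listed partner genes 56 were measured, of which 7 rose (12.5%) and 8 fell (14.3%), beside the 11.6% and 5.88% of all genes.

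**Figure D5:**
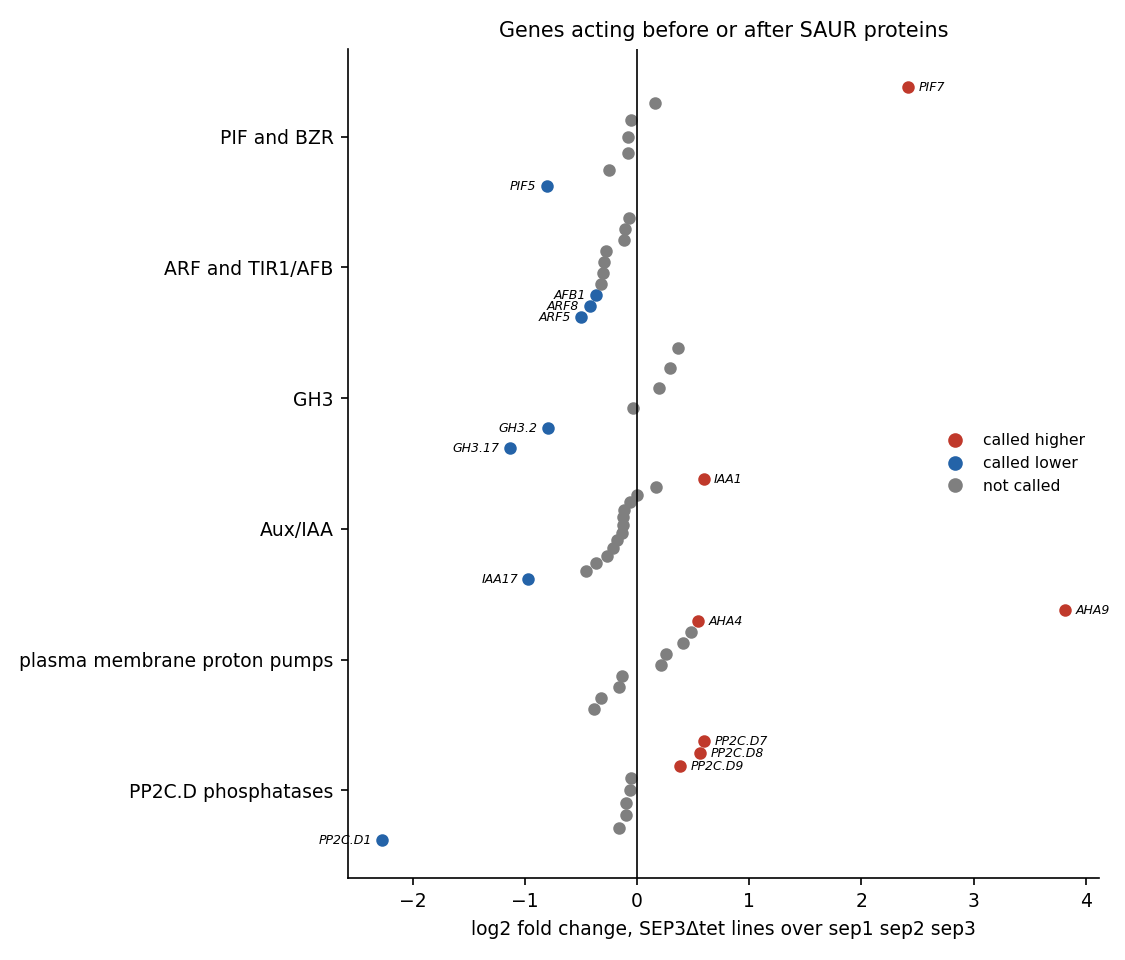
Log2 fold changes (x axis) of genes that act before or after SAUR proteins, by list (y axis), with called genes named. AHA9 at 3.82 and PP2C.D1 at -2.27 are the extremes, and all points of the ARF and TIR1/AFB list lie below 0.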

How the data were processed

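The 3 libraries were grouped by their titles into 1 group, SEP3Δtet lines in the triple mutant, and are described by the authors' comparison with the triple mutant. The submitters' processing notes name STAR, featureCounts, edgeR and the TAIR10 build. Versions, strand, shared reads, filters and the number of control libraries: not given in the sources used here. Per the file headers, the deposited table holds log2 values (a fold change and an average log2 CPM), an F statistic, which is a score, a p-value and an adjusted p-value over all genes. The deposited adjusted p matched a recomputed Benjamini-Hochberg value within 1% for 19777 of 19777 genes. Depth per library is unknown. The lines are separate transgenic lines, and p-values rest on the spread between libraries in that fit.

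From these values, degrees of freedom were solved from F and p (typically 11.85, used where no solution was found) and an implied error from fold change and the root of F, which is an approximation. SAUR numbers, gene models, upstream windows of 250 bases and coding sequences came from the RefSeq annotation of TAIR10.1, in which all 30 members were found by locus identifier; the table holds no coordinates. Translated proteins were aligned globally (Biopython 1.88, BLOSUM62), with identity over the shorter protein, and grouped by average linkage at 50% identity. The code was tested on simulated data with large effects and small errors, which checks the arithmetic and not the power. Levels between genes were compared per kilobase of the longest transcript.

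Genes named are all called members, the others with an unadjusted p under 0.05, the 4 most abundant, the numbered subfamilies SAUR9 to SAUR16, SAUR19 to SAUR24 and SAUR61 to SAUR68, the largest uncalled values, up to 4 called genes per partner list and SEP3; the remaining members, PP2C.D2, PP2C.D5, PP2C.D6, AHA1 and AHA2 were named after their values were seen. Members and lists were chosen with earlier results of these data known. Alternatives were stricter thresholds, a minimum fold, a filter at 1 log2 CPM, recentring, members by annotation, and leaving out near-identical copies. Leaving out a replicate, other count tools and an unfiltered fit were not run, since they need values per library. Analyses used Python 3.11.15, pandas 2.3.3 and scipy 1.17.1.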

Additional observations from a re-analysis of the deposited data

How the results depend on the processing

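Of the counts of 7 higher and 3 lower SAUR genes, an adjusted p of 0.01 left 3 and 1, namely SAUR41, SAUR48, SAUR72 and SAUR50, where 7.49% and 2.12% of all genes were called. Bonferroni adjustment left 0 higher and 0 lower (2.43% and 0.071% of all genes). A log2 fold change of at least 1 in size left 5 higher and 0 lower (7.90% and 0.37%). Readjusting over genes of at least 1 log2 CPM gave 7 and 3 (9.68% and 6.18% of all such genes). Recentring on the median of abundant genes (-0.04 on the log2 scale) also gave 7 and 3 (12.7% and 4.32% of all genes). Members by annotation (31 genes) and leaving out 4 near-identical copies (26 genes) each gave 7 and 3, beside 11.6% and 5.88%. Neither of these last settings could change the counts, since the genes added or left out were not called. The median SAUR log2 fold change ran from 0.04 to 0.17 over these settings. No SAUR gene changed sign on recentring, and none gained or lost a call. Of the 15 partner genes called, 8 lost the call at an adjusted p of 0.01 (PP2C.D1, PP2C.D7, PP2C.D9, IAA1, GH3.17, ARF8, AFB1 and PIF5), 11 with the minimum fold and 15 under Bonferroni adjustment. IAA1 (adjusted p = 0.053) and GH3.17 (0.0527) lost their calls with the filter, and GH3.17 (0.058) and ARF8 (0.062) on recentring, and PP2C.D1 and PIF7 lie under the filter. No paired analysis was possible because the samples form 1 group and the table has no value per library. Leaving out each line could not be done for the same reason. Implied errors were widest for scarce genes, with a median of 0.61 over all genes between -1 and 0 log2 CPM and 0.10 between 5 and 6.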

Other observations

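SAUR79 (AT2G35290) is named as a SAUR locus by the annotation but has no description in the authors' deposited table, so it is not among the 30. Its log2 fold change was 1.03 at an average of 3.01 log2 CPM, with an adjusted p of 0.051, per the authors' deposited table. The implied interval was 0.32 to 1.75. Its value lies on the side of the threshold where it was not called.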
